A study of Mus musculus with 29 samples.

Results

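The voltage-gated sodium and calcium channel genes of mouse spinal cord were followed after aortic cross clamping (ACC), an operation in which the aorta is clamped and the lower cord loses its blood supply for a time. Members were taken by name, as protein-coding genes called Scn with a number and a or b (pore and beta subunits of sodium channels) or with a name starting in Cacna, Cacnb or Cacng (pore, alpha 2 delta, beta and gamma subunits of calcium channels). Of 40 such genes among 54532 annotated genes, 34 had 10 or more counts in at least 3 of the 4 h libraries and were kept. They comprised 7 sodium channel pore genes, 4 sodium channel beta genes, 9 calcium channel pore genes, 4 alpha 2 delta genes, 4 calcium channel beta genes and 6 Cacng genes. Just inside the count rule was Cacna1f (mean 8.57 counts, 10 or more counts in 10 libraries). Just outside it were Scn10a (mean 6.7 counts, in 2 libraries) and Scn11a (mean 6.43 counts, in 2 libraries), both pore genes of sensory ganglion neurons. These means were uneven over libraries, with highest counts of 123 for Scn10a and 64 for Scn11a. The other 4 genes outside were Scn4a, Cacna1s, Cacng1 and Cacng6; the first 3 form the channels of skeletal muscle, and their highest counts in any 4 h library were 19, 25 and 8.

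Poly-A RNA was sequenced from 29 cords or cord regions. Thoracic and lumbar cord was taken at 4 h after ACC or Sham surgery from 3 genotypes, all on a C57BL6 background and of both sexes. The WT group had 3 ACC and 3 Sham mice. The miR128KO group, labelled as a global knockout of the microRNA miR-128, had 4 ACC and 4 Sham mice. The miR155KI group, which carries a miR-155 knock-in directed to motor neurons, had 5 ACC and 4 Sham mice. Each 4 h library came from a separate mouse. At 1 h, thoracolumbar cord (3 libraries) and cervical cord (3 libraries) came from the same 3 WT mice, all clamped, with the cervical cord as the region that keeps its blood supply. Every mouse at 1 h had ACC and no Sham library of that time was used, so a difference between cord regions and an effect of clamping cannot be told apart there. The promoter that drives the miR-155 allele and the ages of the mice are not given in the sources used here. The study dropped library 1 of miR128KO ACC since its cord did not differ from Sham, a choice made on outcome that was followed here; 11 ACC and 11 Sham libraries remained. A further miR128KO ACC library (2) was corrupted, per the series' design text, and was not analysed here.

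Voltage-gated sodium channels open on depolarisation and carry the rising phase of the action potential; calcium channels admit the calcium that releases transmitter at terminals and signals to the nucleus in the cell body. In each channel a large pore subunit (Scn alpha or Cacna1) holds the voltage sensors, and smaller subunits tune its gating and its delivery to the membrane. Sodium channel beta subunits are single-pass adhesion-like proteins. The alpha 2 delta and beta subunits of calcium channels promote surface delivery of the pore, and alpha 2 delta proteins encoded by Cacna2d1 and Cacna2d2 bind the drugs gabapentin and pregabalin. Most Cacng genes of brain and cord encode TARPs, which serve AMPA-type glutamate receptors. In ischemia, failing pumps depolarise neurons and sodium and calcium enter through these channels.

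Library totals ran from 15596512 to 33056693 counts, and no library was a copy of another. The immediate early gene Fos was at 72.1 to 197 CPM (counts scaled to the library total) in the 11 ACC libraries at 4 h, against 8.46 to 17.4 CPM in Sham. At 1 h, thoracolumbar libraries 1 and 2 had 319 and 387 CPM of Fos, whereas thoracolumbar library 3 had 15.4 CPM, against 23.6 to 46.9 CPM in cervical cord; values at 1 h without that library are given beside the calls of that time. The share of counts in the 2646 tested genes of 8 kb or longer, a length that many pore genes exceed, was 21.88% to 25.03% in ACC and 22.16% to 25.49% in Sham. By genotype, its means in ACC and Sham were 23.76% and 23.86% in WT, 23.09% and 24.41% in miR128KO, and 24.07% and 23.77% in miR155KI. In miR128KO it ran from 21.88% to 23.87% in ACC and from 23.49% to 25.35% in Sham. The part of that difference in the miR128KO channel gene values was not tested. In bulk cord, fewer cells of a type and less RNA per cell cannot be told apart.

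Levels of different genes were compared only per length, as CPM per kb of deposited gene length. In Sham cord at 4 h, the sodium channel pore genes stood in the order Scn1a (28.6 ± 3.57 CPM per kb, SD, n = 11), Scn8a (14.3 ± 2.01), Scn2a (6.57 ± 1.03), Scn3a (2.74 ± 0.441), Scn9a (1.09 ± 0.168) and Scn7a (1.07 ± 0.351). Scn1a and Scn8a encode the main pores of adult axons and nodes, Scn2a one of unmyelinated axons and Scn3a one of developing neurons. Scn9a and Scn7a were closer than 1 SD, and every other neighbour named in that order was farther apart than the summed SDs. Among the beta genes, Scn4b had 86.2 ± 11.7 CPM per kb, Scn2b 26.8 ± 2.25 and Scn3b 6.62 ± 0.630, each apart from the next.

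Calcium channel pores were closer together in level per length. Cacna1a (P/Q-type, 8.38 ± 1.12 CPM per kb), Cacna1g (T-type, 8.05 ± 1.23), Cacna1b (N-type, 6.64 ± 0.991), Cacna1e (R-type, 5.31 ± 1.12), Cacna1i (T-type, 4.69 ± 0.774) and Cacna1h (T-type, 4.35 ± 0.953) formed a run in which no neighbours were apart by their SDs. The L-type pores Cacna1c (2.31 ± 0.371) and Cacna1d (1.95 ± 0.456) lay below that run, and the retinal L-type pore Cacna1f was at 0.0416 ± 0.0227 CPM per kb. Cacna2d2 (9.30 ± 0.795), Cacna2d1 (8.66 ± 1.25) and Cacna2d3 (7.91 ± 0.472) were not apart, whereas Cacna2d4 was at 0.281 ± 0.0720. Cacnb4 (16.8 ± 1.47) stood above Cacnb3 (9.41 ± 0.819) and Cacnb1 (9.23 ± 0.434), which were not apart, and Cacnb2 (2.58 ± 0.292) below them. Cacng7, a TARP gene, had 62.6 ± 3.62 CPM per kb, followed by Cacng2 (16.5 ± 1.69), Cacng4 (13.3 ± 1.09), Cacng8 (9.55 ± 1.21), Cacng3 (6.26 ± 0.543) and Cacng5 (4.63 ± 0.446), each apart from the next. Summed over a class, the alpha 2 delta genes had 22.2 ± 1.78 CPM per kb in ACC and 26.1 ± 1.91 in Sham, the sodium pores 50.6 ± 9.21 in ACC and 54.6 ± 6.43 in Sham, and the sodium channel beta genes 295 ± 24.7 in ACC and 294 ± 27.1 in Sham.

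**Figure D1:**
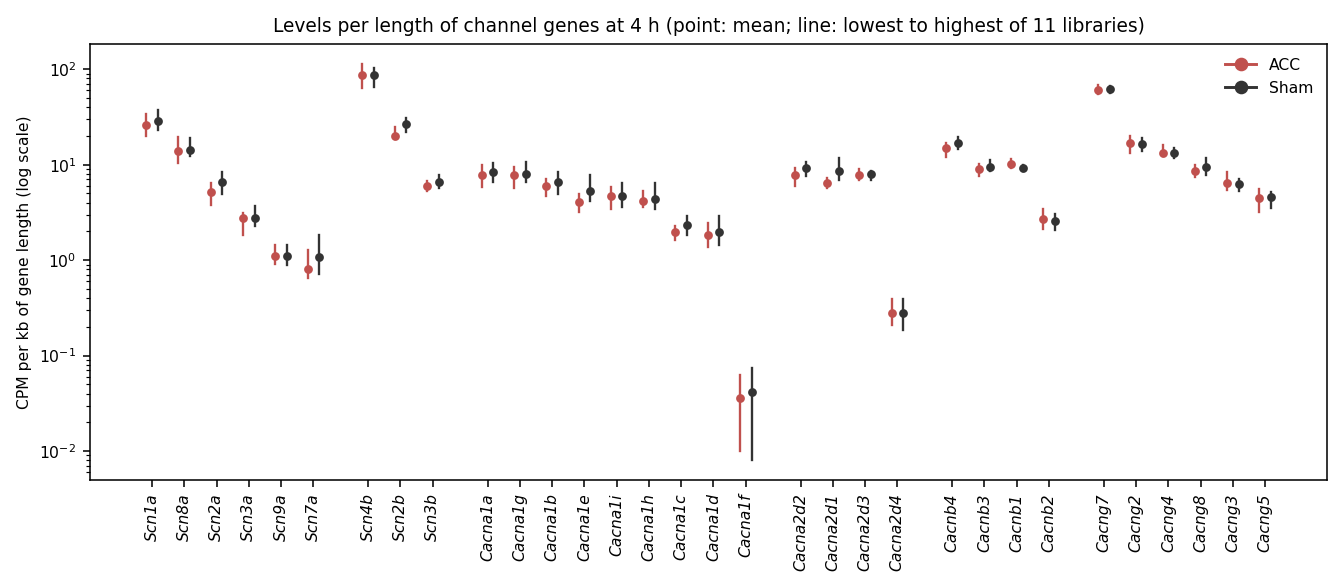
CPM per kb of gene length (log scale) of channel genes at 4 h, by subunit class, with ACC in red on the left of each pair and Sham in black; points are means and lines run from the lowest to the highest of 11 libraries each. Of the genes plotted, Scn4b and Cacng7 stand highest, Cacna1f lowest, and the ACC and Sham lines of each gene overlap.

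The 4 h comparison asked which genes differ between clamped and Sham thoracolumbar cord with the genotypes pooled. Of 33 channel genes tested, 6 fell and 2 rose after ACC, and 25 did not pass the test (edgeR's quasi-likelihood test, Benjamini-Hochberg adjusted p under 0.05 over 17759 genes). Genes that fell were Scn2b, Scn2a, Cacna2d1, Cacna2d2, Cacna1e and Cacnb4, with decreases of 10.9% to 25.4%; Cacnb1 was among those that rose. Of all genes tested 16.4% were called, 9.37% higher and 7.04% lower; among the channel genes 6.06% were higher and 18.2% lower. The median log2 fold change was -0.04 for the channel genes and -0.01 for all genes tested. Falls came from every class except the Cacng genes, of which 0 of 6 were called. With 6 genes, and 7.04% of all genes called lower, this does not set that class apart. At an unadjusted p under 0.05 in edgeR there was 1 Cacng gene, Cacng8 (log2 fold change -0.15), against 29.0% of all genes. DESeq2 also called no Cacng gene, where it called 14.4% of all genes. No channel gene had ACC and Sham values that did not overlap, which 1.23% of all genes had.

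The deposited annotation (GRCm38) placed Scn2b (ENSMUSG00000070304) at chr9:45117782-45130070 on the plus strand, Scn2a (ENSMUSG00000075318) at chr2:65620771-65767447 on the plus strand, Cacna2d1 (ENSMUSG00000040118) at chr5:15934691-16374511 on the plus strand, Cacna2d2 (ENSMUSG00000010066) at chr9:107399612-107529343 on the plus strand. It placed Cacna1e (ENSMUSG00000004110) at chr1:154390731-154884501 on the minus strand, Cacnb4 (ENSMUSG00000017412) at chr2:52428320-52676831 on the minus strand and Cacnb1 (ENSMUSG00000020882) at chr11:98001508-98023034 on the minus strand.

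**Figure D2:**
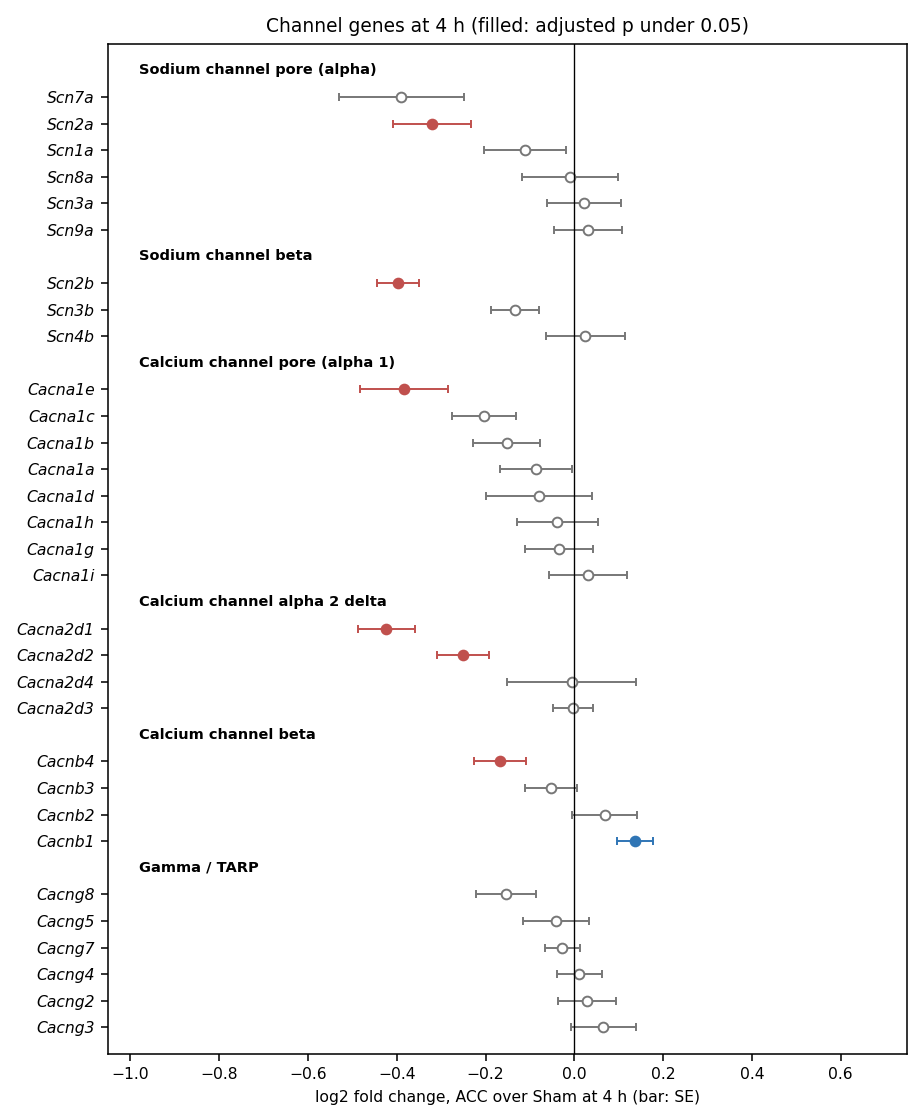
Log2 fold change, ACC over Sham at 4 h, with SE, of tested channel genes by subunit class; filled points passed the adjusted p of 0.05 (red lower, blue higher). Cacna2d1, Scn2b and Cacna1e lie near -0.4, and Cacnb1 at 0.14.

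Scn2b, a beta subunit that links covalently to the sodium channel pore, had the smallest adjusted p of the members. Its level was 87.0 to 114 CPM in ACC (median 92.0), against 103 to 144 CPM in Sham (median 127). In 10 of 11 ACC libraries it was below every Sham library. The log2 fold change was -0.40 (SE 0.0474, 95% interval -0.50 to -0.30, adjusted p = 4.27e-07). Scn2a, a pore gene, had 48.6 to 81.3 CPM in ACC (median 65.5) and 62.2 to 106 CPM in Sham (median 82.2). Those ranges overlapped widely, with 3 ACC libraries below all Sham libraries, and the log2 fold change was -0.32 (SE 0.0873, adjusted p = 0.0122).

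The alpha 2 delta genes split into a pair that fell and a pair that was not called. Cacna2d1 was at 70.4 to 91.0 CPM in ACC (median 78.6) and 85.4 to 145 CPM in Sham (median 107), with 10 of 11 ACC libraries below every Sham library. It fell by 25.4%, the largest fall of the members called (log2 fold change -0.42, SE 0.0637, adjusted p = 2.04e-05). Cacna2d2 was at 47.9 to 74.0 CPM in ACC (median 61.3) and 60.7 to 84.4 CPM in Sham (median 73.8), and 5 ACC libraries were below all Sham libraries. Its log2 fold change was -0.25 (SE 0.0591, adjusted p = 0.00329). Cacna2d3, at a like level per length, had a log2 fold change of -0.00 with a 95% interval of -0.10 to 0.09, and Cacna2d4 one of -0.01 (-0.31 to 0.30).

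Cacna1e, the R-type pore, was at 79.7 to 125 CPM in ACC (median 107) and 106 to 196 CPM in Sham (median 125). The groups overlapped, with 5 ACC libraries below the Sham range, and the log2 fold change was -0.38 (SE 0.0996, adjusted p = 0.00927). Cacnb4, the beta gene with the highest level per length, was at 107 to 152 CPM in ACC (median 137) and 132 to 176 CPM in Sham (median 152). Its call was at the edge of the threshold (log2 fold change -0.17, SE 0.0586, adjusted p = 0.0492). The call ended in 16 of 22 fits with a single library removed, at an adjusted p of up to 0.0918 without miR155KI Sham library 4. These libraries were WT ACC 3, WT Sham 1 and 2, miR128KO ACC 3, 4 and 5, miR128KO Sham 1, 2, 3 and 4, miR155KI ACC 1, 2 and 4, and miR155KI Sham 1, 3 and 4.

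Cacnb1, the beta subunit best known from skeletal muscle and also present in neurons, was at 41.8 to 52.1 CPM in ACC (median 44.5) and 39.3 to 45.4 CPM in Sham (median 41.3). It rose by 9.95% (log2 fold change 0.14, SE 0.0397, adjusted p = 0.0165), with 5 ACC libraries above the Sham range; with no filter on low counts its adjusted p was 0.0612, and with any single library left out it was at most 0.0315.

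**Figure D3:**
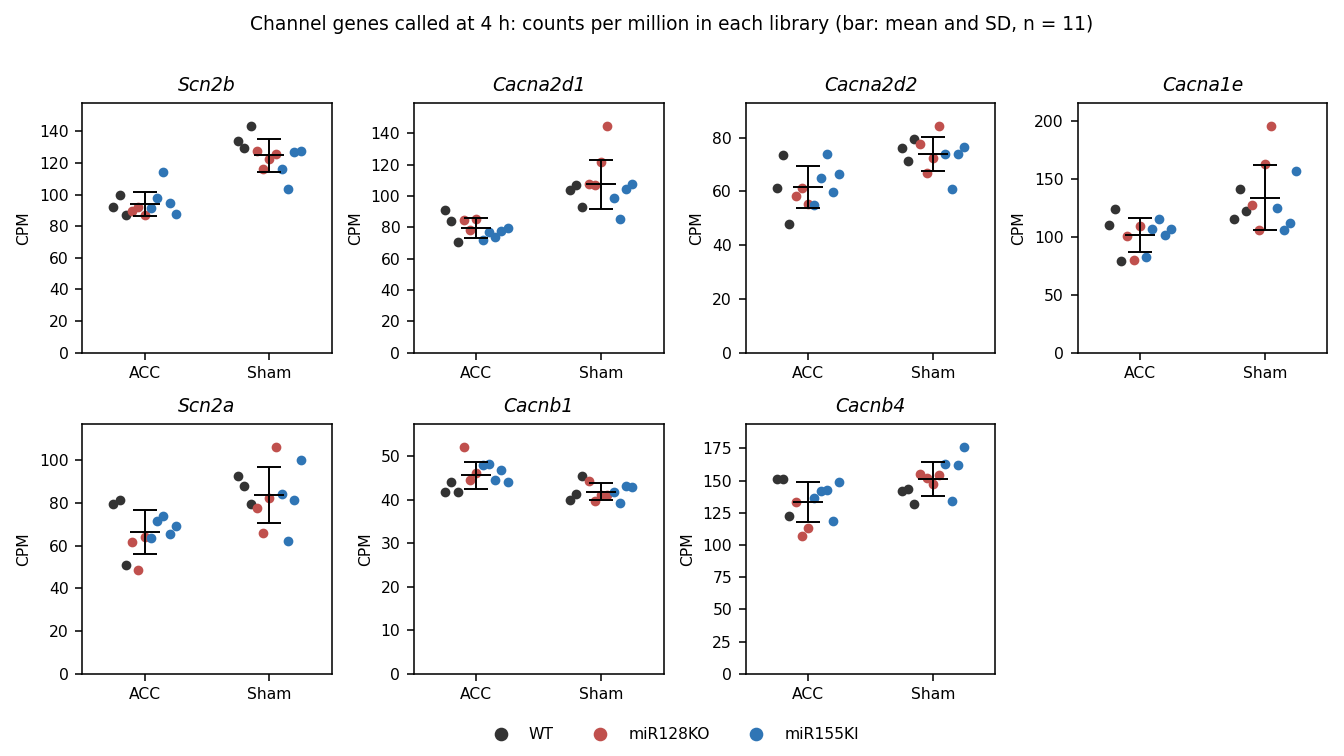
CPM of 7 of the 8 channel genes called at 4 h in each library, ACC left and Sham right of each panel, coloured by genotype; horizontal and vertical bars are the mean and SD of 11 libraries. For Scn2b and Cacna2d1, 10 of 11 ACC libraries lie below every Sham library; the other genes overlap more.

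Among the 25 genes not called, Cacna1c (L-type pore; log2 fold change -0.20, adjusted p = 0.056) and Scn7a, a sodium-sensing relative of the pores (-0.39, adjusted p = 0.057), were nearest to the threshold. Scn7a was at 4.81 to 9.37 CPM in ACC and 5.31 to 13.5 CPM in Sham, and DESeq2 called it (adjusted p = 0.0434). Intervals were narrow for several genes: Cacng7 at -0.03 (95% interval -0.11 to 0.06), Cacng4 at 0.01 (-0.10 to 0.12) and Cacnb3 at -0.05 (-0.17 to 0.07). They were wider for the main axonal pores, Scn1a at -0.11 (-0.30 to 0.08) and Scn8a at -0.01 (-0.24 to 0.22). The presynaptic pores Cacna1a and Cacna1b stood at -0.09 (-0.26 to 0.08) and -0.15 (-0.31 to 0.01), and the T-type pores Cacna1g, Cacna1h and Cacna1i between -0.04 and 0.03. Cacna1f was too low for the test.

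Cell type markers were set beside these values, with 9.37% of all genes called higher and 7.04% lower. Of 11 neuron markers 2 fell (Syt1, log2 fold change -0.27, adjusted p = 0.00135; Elavl4, -0.14, adjusted p = 0.0455) and 9 were not called; none was at 0 in all libraries, and their summed level was 7908 to 9979 CPM in ACC and 7799 to 9169 CPM in Sham. Of 10 motor neuron markers 0 were called, with sums of 399 to 535 CPM in ACC and 364 to 491 CPM in Sham. Of 7 microglia markers 4 fell, with P2ry12 at -0.78 (adjusted p = 2.87e-06), and their sum was 198 to 267 CPM in ACC and 247 to 309 CPM in Sham. Of 8 oligodendrocyte markers 0 were called. Astrocyte markers gave 1 higher (Sox9) and 2 lower (Gja1 and Gjb6) of 9, oligodendrocyte precursor markers 1 higher and 2 lower of 6, ependyma markers 1 higher and 1 lower of 5, and meningeal and fibroblast markers 1 lower of 7; of 7 endothelial, 6 measured mural and 6 measured blood markers 0 were called. The part of these shifts in the channel gene values was not tested. For Cacnb1, known from muscle, 0 of 7 measured skeletal muscle markers were called, and the summed markers reached 134 CPM in 1 ACC library, against at most 51.4 CPM in Sham; their part in the Cacnb1 value was not tested. Schwann cell and sensory ganglion markers summed to 164 to 386 CPM in ACC and 177 to 510 CPM in Sham, with 0 of 7 measured called; their part in the Scn7a value was not tested.

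The authors' deposited table for 4 h gave 2 higher and 7 lower of the 34 genes at an adjusted p under 0.05, where 14.1% of all genes in it were called. In the authors' deposited table the 8 genes called here kept their directions, and Scn7a was the further lower gene (log2 fold change -0.39, adjusted p = 0.0441).

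Upstream sequence is shown for the pair with the clearest falls, to set the starts of genes that moved alike side by side. RefSeq promoters (build GRCm38.p6) were found for 7 of the 8 genes called. The stretch before the Scn2b gene is chr9:45117626-45117781 on the plus strand and that before Cacna2d1 is chr5:15934441-15934690 on the plus strand, each ending at the base before the deposited gene start. Capitals mark GC boxes (GGGCGG on either strand), some of which overlap.
Scn2b: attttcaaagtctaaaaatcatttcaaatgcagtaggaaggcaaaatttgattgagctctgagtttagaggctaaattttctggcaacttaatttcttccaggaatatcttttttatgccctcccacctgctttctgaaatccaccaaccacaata
Cacna2d1: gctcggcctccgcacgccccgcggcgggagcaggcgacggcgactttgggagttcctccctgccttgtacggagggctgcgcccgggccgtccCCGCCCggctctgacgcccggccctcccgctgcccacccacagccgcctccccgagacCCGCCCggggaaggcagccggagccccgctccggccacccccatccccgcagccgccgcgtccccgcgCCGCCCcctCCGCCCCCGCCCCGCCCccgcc

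The Scn2b stretch has 156 bases, cut where the deposited gene begins upstream of the RefSeq start, and is 35.3% G and C with 0 GC boxes. The Cacna2d1 stretch has 250 bases and is 82.4% G and C with 6 GC boxes. In the full 250 bases before the RefSeq start of Scn2b there were also 0 GC boxes. Sites for factors that respond to activity or stress were searched on both strands in the 250 bases upstream of each listed start of the 7 genes. No start held an AP-1 site (TGANTCA, in 6.75% of all 32851 promoters), a cyclic AMP response element (TGACGTCA, in 1.55%), an Egr site (GCGTGGGCG, in 0.536%) or a heat shock element (TTC, GAA and TTC, with 2 free bases between them, in 0.466%). GC boxes were in 32.7% of all promoters, a share counted per start. Among the 7 genes they were in at least 1 window of Cacna2d1, Cacna2d2, Cacnb1 and Cacnb4. Cacnb1 has 2 listed starts and Cacnb4 has 3, and not every one of these held a GC box. A count of genes is thus not comparable with that share. A missing match says only that these letters are not in that window.

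Within genotypes, the clamp was compared with Sham in a single fit of the 6 groups (19581 genes tested, 34 channel genes). In WT mice 1 channel gene fell (Scn2b; 0.291% of all genes were called lower, 1.44% higher and 1.73% either way). In miR128KO mice 3 fell (Scn2b, Cacna2d1 and Cacnb4; 0.659% lower, 2.07% higher, 2.73% either way), and in miR155KI mice 2 fell (Cacna2d1 and Scn2b; 1.32% lower, 3.29% higher, 4.62% either way). No channel gene rose within a genotype in edgeR; at an unadjusted p under 0.05 in either direction there were 5 in WT (12.7% of all genes), 11 in miR128KO (16.0%) and 6 in miR155KI (18.2%). DESeq2 called 1 higher, Cacnb1 in miR128KO, where it called 5.07% of all genes.

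Scn2b was at 92.3, 99.9 and 87.3 CPM in WT ACC, against 134, 130 and 144 CPM in WT Sham (log2 fold change -0.53, SE 0.0838, adjusted p = 0.000376). In miR128KO mice it was at 89.5, 92.0 and 87.0 CPM in ACC, against 128, 116, 123 and 126 CPM in Sham (-0.44, SE 0.0785, adjusted p = 0.00135). In miR155KI mice it was at 91.7, 97.6, 114, 94.97 and 88.0 CPM in ACC, against 116, 103, 127 and 128 CPM in Sham (-0.27, SE 0.0680, adjusted p = 0.0193). Groups did not overlap in WT or miR128KO mice and overlapped in miR155KI mice through ACC library 3 and Sham library 2. The miR155KI call was lost without ACC library 5 (adjusted p = 0.065), Sham library 3 (0.0866) or Sham library 4 (0.0649), which left 1 gene called there. The miR128KO call was lost with ACC library 1, dropped by the study on outcome, put back (log2 fold change -0.29, adjusted p = 0.162), and so was that of Cacnb4 (adjusted p = 0.0722).

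Cacna2d1 was at 91.0, 84.4 and 70.4 CPM in WT ACC, against 104, 107 and 93.0 CPM in WT Sham (log2 fold change -0.30, SE 0.102, adjusted p = 0.169). In miR128KO mice it was at 84.6, 78.6 and 85.0 CPM in ACC, against 108, 107, 122 and 145 CPM in Sham (-0.52, SE 0.0951, adjusted p = 0.00171). In miR155KI mice it was at 71.7, 77.3, 74.2, 78.0 and 79.4 CPM in ACC, against 98.9, 85.4, 105 and 108 CPM in Sham (-0.37, SE 0.0824, adjusted p = 0.00822). ACC and Sham did not overlap within any of the 3 genotypes, also in WT where the test was not passed; 19.7% of all genes did not overlap in WT, 14.2% in miR128KO and 7.72% in miR155KI. Of the 34 channel genes, 4 did not overlap in WT, 10 in miR128KO and 2 in miR155KI, so this was not particular to Cacna2d1.

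Cacnb4 had the smallest p in a joint test of whether the ACC effect differed among the genotypes. It was at 134, 107 and 114 CPM in miR128KO ACC, against 155, 152, 147 and 154 CPM in miR128KO Sham (-0.35, SE 0.0902, adjusted p = 0.0329). In WT mice the value was 0.04 (95% interval -0.17 to 0.24) and in miR155KI mice -0.19 (-0.35 to -0.02). The miR128KO call was lost without ACC library 4 (adjusted p = 0.132) or 5 (0.144), or Sham library 1 (0.0656), 2 (0.0599) or 4 (0.0705). Over all 29 alternatives it was lost in 7, at an edgeR adjusted p of up to 0.289. The joint test called 0 of 34 channel genes and 0 of all genes (0% in edgeR; 1 gene in DESeq2, 0.00265%). At an unadjusted p under 0.05 it gave 1 channel gene, Cacnb4 (adjusted p = 0.992), against 3.16% of all genes. Of the 8 genes called with genotypes pooled, Scn2b was called within all 3 genotypes with library 1 of miR128KO ACC left out. The values of Cacna1e ran from -0.59 in miR128KO to -0.26 in WT.

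**Figure D4:**
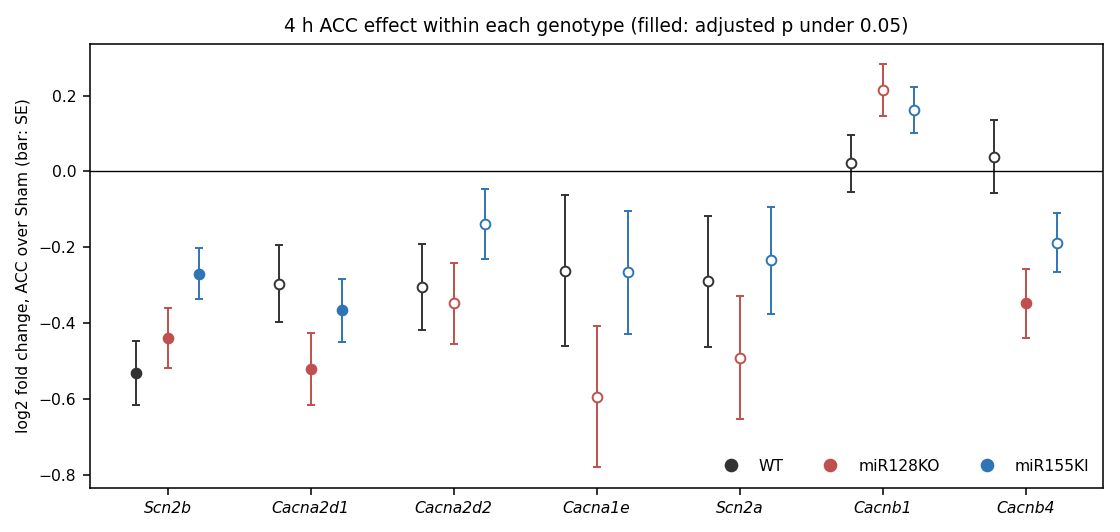
Log2 fold change, ACC over Sham at 4 h, with SE, of 7 of the 8 genes called with genotypes pooled, within WT, miR128KO and miR155KI mice; filled points passed the adjusted p of 0.05. Scn2b is filled in all 3 genotypes, and the Cacnb4 values run from 0.04 in WT to -0.35 in miR128KO.

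Among Sham mice, the genotypes were compared for levels without clamping. In miR128KO Sham against WT Sham 0 channel genes and 0% of all genes were called by edgeR (3 channel genes at an unadjusted p under 0.05, against 6.37% of all genes, and 3 without overlap, against 8.42%; DESeq2 called 24 genes, 0.104%). In miR155KI Sham against WT Sham 0 channel genes and 0% of all genes were called (3 at an unadjusted p under 0.05, against 4.68%, and 2 without overlap, against 6.07%; DESeq2 called 11 genes, 0.0527%). Cacna2d1 averaged 120 CPM in miR128KO Sham and 101 CPM in WT Sham, without overlap (log2 difference 0.26, SE 0.0944, adjusted p = 0.650 in edgeR). Scn2b was below WT Sham without overlap in both, averaging 123 CPM in miR128KO Sham and 119 CPM in miR155KI Sham, against 136 CPM in WT Sham (log2 differences -0.13 and -0.19, adjusted p = 0.826 and 0.999 in edgeR). Cacnb4 averaged 139 CPM in WT Sham. It was higher without overlap in miR128KO Sham (152 CPM, log2 difference 0.14, adjusted p = 0.839 in edgeR). In miR155KI Sham it averaged 159 CPM, with overlap (0.19, adjusted p = 0.999 in edgeR).

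Genes that act on these channels were described beside them. Of all genes tested at 4 h, 9.37% were called higher and 7.04% lower, the shares to set beside each list's count. The RGK small GTPases, which bind calcium channel beta subunits and inhibit the channel, rose after ACC in 3 of 3 measured members. Rem1, also listed, was too low for the test, with a mean of 0.195 CPM in ACC and 0.295 CPM in Sham. Rrad was at 5.05 ± 1.76 CPM in ACC and 0.931 ± 0.524 CPM in Sham (SD, n = 11 each; log2 fold change 2.43, adjusted p = 1.83e-07). Rem2 was at 9.55 ± 2.74 CPM in ACC and 2.91 ± 0.638 CPM in Sham (1.71, adjusted p = 3.43e-10), and Gem at 10.6 ± 2.03 CPM in ACC and 5.63 ± 1.27 CPM in Sham (0.93, adjusted p = 1.19e-06). These 3 measured inhibitors changed by more than any of the channel subunits, whose largest log2 value was 0.42 in size. Of the 4 fibroblast growth factor homologous factors, which bind the tail of sodium channel pores, 3 fell: Fgf14 (-0.23, adjusted p = 0.0146), Fgf13 (-0.13, 0.0291) and Fgf12 (-0.17, 0.0308).

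The proteins that hold sodium channels at the axon initial segment and nodes showed 0 of 9 genes called by edgeR (smallest adjusted p 0.134); Sptan1 was at 799 ± 84.8 CPM in ACC and 811 ± 60.0 CPM in Sham, and Ank2 at 674 ± 69.2 CPM in ACC and 675 ± 60.3 CPM in Sham. Of 4 tested genes of the sodium leak channel complex 1 fell, Fam155a (-0.25, adjusted p = 0.000166), while Nalcn, its pore, was at -0.08. Of 20 traffic, scaffold and calmodulin partners 4 fell, namely Rimbp2 (-0.28, adjusted p = 0.000777) and Rims2 (-0.22, 0.00499), which tether calcium channels at release sites, and the kinase genes Camk2a (-0.26, 0.00482) and Camk2b (-0.12, 0.0486). The 1 that rose was Stac3, a partner of the muscle calcium channel, at 1.66 ± 0.721 CPM in ACC and 0.707 ± 0.264 CPM in Sham (1.25, adjusted p = 0.000458). The summed skeletal muscle markers reached 134 CPM in ACC and 51.4 CPM in Sham. Their part in the Stac3 value was not tested. Of 13 pumps and exchangers 1 fell, the sodium-calcium exchanger Slc8a2 (-0.25, adjusted p = 0.0144). Of 13 genes of intracellular calcium release and refill 3 fell: Itpr1 (-0.25, adjusted p = 0.00312), Orai2 (-0.16, 0.00677) and Stim1 (-0.10, 0.0447).

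At 1 h, thoracolumbar cord was compared with cervical cord of the same clamped mice. Of 33 channel genes tested 2 were higher in thoracolumbar cord, Scn3b and Cacng5, and 0 were lower (0.438% of 17810 genes were called, 0.208% higher and 0.230% lower; in the lower direction DESeq2, which called 0.592% of all genes, also called none). At an unadjusted p under 0.05 there were 5 channel genes, against 8.25% of all genes. Scn3b, a beta subunit that does not bind the pore covalently, measured 35.0, 35.4 and 36.9 CPM in mice 1, 2 and 3 in the thoracolumbar region, against 28.1, 24.1 and 22.2 CPM in the cervical region. Every thoracolumbar value was above every cervical value (log2 difference 0.50, SE 0.0940, adjusted p = 0.021). Cacng5, a TARP gene, measured 16.9, 16.7 and 21.9 CPM in the thoracolumbar region, against 12.1, 12.2 and 11.2 CPM in the cervical region (0.61, SE 0.123, adjusted p = 0.0357). Again the regions did not overlap, and the difference was largest in mouse 3 (log2 0.96, against 0.47 and 0.45 in mice 1 and 2), whose thoracolumbar cord had no rise in Fos.

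Both calls rested on few libraries. Without thoracolumbar library 3, Scn3b stayed called (log2 difference 0.48, adjusted p = 0.0437) and Cacng5 did not (0.47, adjusted p = 0.0861). Scn3b was lost without thoracolumbar library 1 (adjusted p = 0.0525) or 2 (0.0824) or cervical library 2 (0.124) or 3 (0.163). Cacng5 was lost without thoracolumbar library 2 (0.0599) or cervical library 1 (0.0689), 2 (0.137) or 3 (0.202). The authors' deposited table also called 2 channel genes at 1 h, Scn3b (log2 difference 0.51, adjusted p = 0.00178) and Cacng5 (0.61, adjusted p = 0.00934), with 0.831% of its genes called.

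Regions did not overlap for 5 of 33 channel genes tested, a share like the 14.9% of all genes, so the count does not set the channel genes apart. These were Scn3b, Cacng5, Cacnb3, Scn3a and Cacng4, all higher in thoracolumbar cord. The last 3 were named after their values were seen. Cacnb3 measured 33.4, 32.4 and 39.9 CPM in the thoracolumbar region, against 28.9, 26.6 and 23.5 CPM in the cervical region (0.39, adjusted p = 0.141; 0.30, adjusted p = 0.327 without thoracolumbar library 3). The genes called at 4 h were not called at 1 h: Scn2b was at 112, 96.2 and 123 CPM in thoracolumbar cord and 108, 113 and 103 CPM in cervical cord of mice 1, 2 and 3, and Cacna2d1 at 85.0, 72.7 and 103 CPM in thoracolumbar and 88.0, 68.9 and 67.4 CPM in cervical cord. Whether a gene's values differ between 1 h and 4 h was not tested, since those comparisons are made against different cord.

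**Figure D5:**
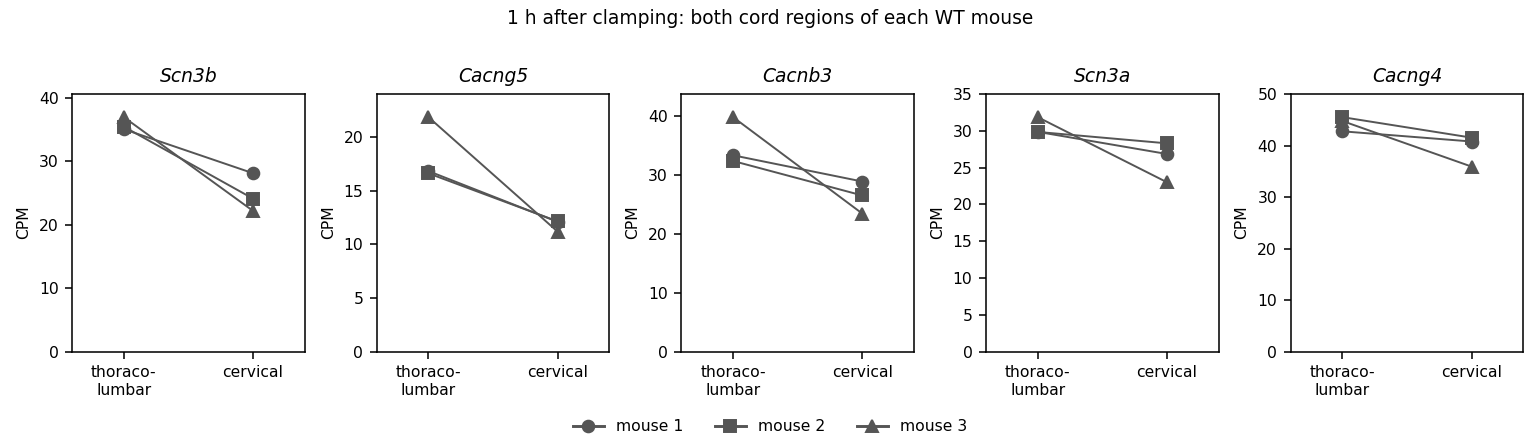
CPM in thoracolumbar (left) and cervical (right) cord of each WT mouse at 1 h, joined by a line, for the 5 channel genes whose regions did not overlap. Scn3b lies between 35.0 and 36.9 CPM in thoracolumbar cord and between 22.2 and 28.1 CPM in cervical cord, and mouse 3 (triangles) has the steepest line for all 5 genes.

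Motor neuron markers moved with region at 1 h, where 0.208% of all genes were called higher and 0.230% lower. Of 10 markers 4 were lower in thoracolumbar cord, among them Slc5a7 (86.8 ± 3.40 CPM in thoracolumbar cord and 157 ± 9.10 CPM in cervical cord; log2 difference -0.89, adjusted p = 3.14e-06) and Chat (-0.71, adjusted p = 0.000653), and their sum was 427 to 464 CPM in thoracolumbar cord and 611 to 648 CPM in cervical cord. Without thoracolumbar library 3 the same number, 4 of 10, were lower (Slc5a7 -0.87, adjusted p = 1.46e-05; Chat -0.66, adjusted p = 0.00216). Neuron markers showed 0 of 11 called, with sums of 8381 to 9269 CPM in thoracolumbar cord and 8759 to 9371 CPM in cervical cord. The part of these markers in the Scn3b and Cacng5 values was not tested. Among the companions of the channels, Fgf11 (-0.37, adjusted p = 0.0292) and Itpr3 (-0.71, adjusted p = 0.0236) were lower in thoracolumbar cord; without that library Itpr3 stayed called (-0.77, adjusted p = 0.0259) and Fgf11 did not (-0.37, adjusted p = 0.0548). The RGK genes had 0 of 3 measured called at 1 h, with Rem2 at 6.11 ± 1.78 CPM in thoracolumbar cord and 3.37 ± 0.706 CPM in cervical cord (0.83, adjusted p = 0.215). Without thoracolumbar library 3, 1 of the 3 was called higher, Rem2 (1.04, adjusted p = 0.022), while Gem (0.43, adjusted p = 0.317) and Rrad (0.61, adjusted p = 0.586) were not.

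The study also split ACC mice at 4 h by their own chemokine levels, 3 high against 3 low, so those groups were chosen on measured values and no test of their own was made here. In the authors' deposited table of that split 0 of 34 channel genes were called at an adjusted p under 0.05, where 0.282% of its genes were. A single one of the 34, Cacng3, had an unadjusted p under 0.05 (log2 difference -0.32, high over low, p = 0.0344) in the authors' deposited table. It did not pass after adjustment, and the share of all genes at the unadjusted threshold is not given here.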

How the data were processed

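Per the submitters' processing notes the tools were fastp for read cleaning, HISAT2 2.0.5 for alignment and featureCounts 1.5.0-p3 for counting, with builds GRCm38 and mm10; the strand setting of the counting is not given in the sources used here. Libraries were directional, per the labels' protocols. The deposited values used for all tests are raw gene counts. The authors' normalized counts are a signal: the counts over 1 size factor for each library, from which 0 values departed by more than 0.1%. The authors' log2 fold changes, the Wald score and the p-values are DESeq2 output, per the file headers; the deposited 4 h and chemokine tables run Sham minus ACC and low minus high and were turned round. Gene coordinates and lengths were taken as the authors deposited them. Another 55 per-sample columns, in worksheets that repeat chosen genes, were not used.

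Counts were tested in edgeR 4.0.16 (R 4.3.3): TMM factors, filterByExpr with a minimum count of 10, robust quasi-likelihood F tests, Benjamini-Hochberg adjustment over all genes and a threshold of 0.05. Residual degrees of freedom were 20 (4 h, genotypes pooled), 16 (6 groups) and 4 (1 h), and the biological coefficients of variation 0.134, 0.141 and 0.104. SE is the absolute log2 fold change over the square root of F, and 95% intervals use the t distribution with the residual degrees of freedom. CPM were scaled on the library total of gene counts. DESeq2 1.42.0, other scalings, no filter, library 1 of miR128KO ACC added, each library left out and a replicate block were alternatives. The scripts were tested on simulated data. At 1 h the labels pair thoracolumbar and cervical libraries by mouse, though the paired deviations correlated at -0.0252, -0.0124 and 0.053 over 15659 genes; blocked and unblocked fits called the same number. At 4 h each library is a separate mouse. Channel genes passing the threshold were given in full, with at most 8 per direction, except that some member genes, kept in the counts, are not reported here; from companion lists up to 4 passing genes, or the 2 highest, were named. Members and lists were chosen with earlier results of these data known. Without a stated strand setting, reads of a gene and an overlapping antisense gene cannot be told apart; of the 8 genes called at 4 h, Cacna1e and Scn2a overlap no annotated gene.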

Additional observations from a re-analysis of the deposited data

How the results depend on the processing

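No called gene changed direction under any alternative run. Some genes not called and near 0 did cross it over the alternatives, among them Cacnb4 in WT (-0.02 to 0.12) and, with genotypes pooled, Cacng4 (-0.02 to 0.03) and Scn8a (-0.07 to 0.03). At 4 h with genotypes pooled, the number of channel genes called higher was 1 without the filter on low counts (Cacnb1 lost) and 0 with the replicate block within genotype; leaving out each library gave 2 to 2 higher and 5 to 7 lower. The 4 h replicate numbers pair no mice (correlations of deviations -0.293 to 0.189); under that block 10.5% of all genes were called and Cacnb1 (adjusted p = 0.0854) and Cacnb4 (0.161) were not, while Scn7a was; in miR128KO and miR155KI Scn2b was not (0.0606 and 0.0919). In miR128KO, DESeq2 called 1 higher and 7 lower, and adding ACC library 1 left 1 lower (Cacna2d1; Scn2b at adjusted p = 0.162); left-out libraries gave 2 to 4 lower. In miR155KI the number lower was 1 with library 1 of miR128KO ACC added, with the replicate block and with that genotype's libraries alone, and 1 to 2 over left-out libraries. At 1 h it was 0 to 1 higher over left-out libraries, 2 with the mouse as replicate block and 3 without the filter (with Cacnb3). The order of levels per length was the same with TMM scaling. Other counts stayed within 1.5 times. The causes were not tested. Depth was lowest for Cacna1f (mean 8.57 counts at 4 h).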

Other observations

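Library 1 of the miR128KO ACC mice, left out of the comparisons, had 10.6 CPM of Fos. All 8 genes called at 4 h lay within the Sham range in that library and 4 lay within the ACC range. The library was dropped for not differing from Sham and the genes were called without it, so this count is no separate support for the calls. The same count over all genes is not given here. Scn2b (131 CPM) and Cacna2d1 (98.01 CPM) were above all 11 other ACC libraries, and Cacnb1 (41.0 CPM) was below all of them. Of the 26 other channel genes, 23 lay within the Sham range and 26 within the ACC range.

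No channel gene called in any comparison had a library standing apart from the rest of its group by Dixon's rule, in 30 groups examined over 10 genes. With 3 libraries in a group that rule can hardly flag any, so it cannot exclude an outlying library there. Cacng5 had 16.7, 16.9 and 21.9 CPM in thoracolumbar cord at 1 h, and its call was lost without library 3 (edgeR adjusted p = 0.0861).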
